A study of Mus musculus with 24 samples.

Results

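The genes that build and break down the sphingolipids of myelin were followed in cultured mouse oligodendrocytes kept with and without ethanol. The group was a list of 9 genes, Ugt8a, Gal3st1, Fa2h, Cers2, Sptlc1, Sptlc2, Degs1, Elovl7 and Galc, chosen by name out of the 55359 gene rows of the count table, and all 9 had counts high enough for every test. The cells were taken from the cortex of C57BL/6J pups aged 5 to 7 days after birth, by a magnetic sort for O4, then differentiated for 3 days, mainly with triiodothyronine (T3, a thyroid hormone). Ethanol was then present for 3 days or was left out, and RNA was counted by 3′ tag sequencing, which reads a short stretch near the 3′ end of each transcript. The 24 wells formed 4 groups of 6. Experiment 1 held wells with 30 mM ethanol and control wells with 0 mM, and experiment 2 held wells with 10 mM ethanol and its own control wells with 0 mM. All 4 groups shared the strain, the sort and the hormone. Control plates stood in an incubator of their own, so an effect of ethanol and one of the incubator cannot be told apart, and since each dose belongs to 1 experiment, nor can dose be told from experiment. The labels do not say whether wells of a group came from separate litters or isolations, so p-values measure the spread between these wells.

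Sphingolipids make up a large part of the lipid of myelin, the membrane that oligodendrocytes wrap around axons. Their synthesis starts in the endoplasmic reticulum, where serine palmitoyltransferase joins serine and a fatty acyl chain, a ceramide synthase adds another acyl chain and a desaturase completes ceramide. Oligodendrocytes send much of their ceramide to galactosylceramide and its sulfated form, sulfatide, whose long and often hydroxylated acyl chains help to pack the myelin membrane. The lysosome breaks galactosylceramide down again. The O4 antibody used for the sort binds sulfatide, a product of these enzymes, and also an antigen of late precursors; lipids were not measured here.

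RefSeq promoter windows on the mouse build GRCm38.p6, each running from 250 bases before to 50 bases after an annotated transcript start, were found for 8 of the 9 genes (11 windows); Fa2h had none. The windows of Ugt8a, Gal3st1 and Cers2 are shown because the counts of these genes stood far above the rest of their group in the same well, described below. They lie at chr3:125938603-125938902 on the minus strand for Ugt8a, chr11:3983386-3983685 on the plus strand for Gal3st1 and chr3:95314940-95315239 on the plus strand for Cers2, and read 5′ to 3′ along the gene. Capitals mark ACAATG, a sequence bound by SOX factors.
Ugt8a: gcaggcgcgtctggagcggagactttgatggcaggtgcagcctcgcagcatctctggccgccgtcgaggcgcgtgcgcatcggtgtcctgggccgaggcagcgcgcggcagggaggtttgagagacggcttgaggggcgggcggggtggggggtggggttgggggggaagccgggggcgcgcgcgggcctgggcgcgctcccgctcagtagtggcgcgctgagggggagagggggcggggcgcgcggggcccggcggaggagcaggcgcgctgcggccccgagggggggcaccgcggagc
Gal3st1: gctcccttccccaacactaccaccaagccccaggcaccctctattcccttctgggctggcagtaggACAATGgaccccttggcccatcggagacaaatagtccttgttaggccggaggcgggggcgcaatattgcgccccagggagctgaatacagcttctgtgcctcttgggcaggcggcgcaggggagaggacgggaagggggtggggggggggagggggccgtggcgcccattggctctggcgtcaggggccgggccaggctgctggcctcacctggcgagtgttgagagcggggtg
Cers2: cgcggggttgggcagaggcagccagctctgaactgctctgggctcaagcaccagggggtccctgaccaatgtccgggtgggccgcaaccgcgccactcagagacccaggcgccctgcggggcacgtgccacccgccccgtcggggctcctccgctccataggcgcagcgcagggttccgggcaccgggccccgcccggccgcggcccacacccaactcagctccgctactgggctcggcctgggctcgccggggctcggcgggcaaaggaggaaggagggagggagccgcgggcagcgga

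The Ugt8a window was 78.3% G and C, against a median of 52.7% over all 32851 RefSeq windows of this length. Each window was searched on both strands for 6 short motifs, and no match overlapped another. The SOX motif ACAATG was in 2 of the 11 windows, both of Gal3st1 and covering the same bases, and in 12.6% of all windows. Another SOX motif, ACAAAG, was in 1 window, that of Sptlc1, and in 18.7% of all windows. The E-box CAGCTG was in the Degs1 window and in a second Cers2 window, and in 16.3% of all windows. No window of these genes held the E-box CAGATG, which is in 17.2% of all windows. The same was true of the MYRF motif CTGGNAC, in 19.3% of all windows, and of TCACCCC, a part of the SREBP element, in 4.97%.

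Wells held between 1184609 and 1817028 counts. Levels are given as CPM, counts scaled to the TMM-adjusted library size. The floor of 3 counts came to between 1.71 and 2.56 CPM, under the level of every gene in the group. Floors cover counting error only. The 11 oligodendrocyte markers, among them Mbp, Mag, Sox10 and Myrf, were all present in all 4 groups. Markers of astrocytes, microglia, oligodendrocyte precursors, neurons and mural cells were present too, so the RNA came from a mixture. In such bulk samples, fewer cells of a type and less RNA per cell cannot be told apart. One well, replicate 1 at 30 mM, stood apart in the oligodendrocyte markers. Their summed CPM was 15408 there, and between 9162 and 9700 in the 5 other wells at 30 mM. The fold changes at 30 mM are therefore also given without replicate 1. Replicates 1 and 2 also held the most counts of that group, 1688867 and 1610397, the other wells at most 1358062.

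At 30 mM ethanol no gene of the group passed edgeR's quasi-likelihood test at an adjusted p under 0.05. The counts were 0 of 9 higher and 0 of 9 lower, where 3.02% of the 13235 genes tested were higher and 6.65% lower, or 9.67% in either direction. At an unadjusted p under 0.05 there were 3, Ugt8a, Fa2h and Sptlc2, beside 23.5% of all tested genes, and DESeq2 and limma voom also called 0 of 9. In none of the 9 did the ethanol wells lie wholly above or wholly below the control wells, against 1.08% of all tested genes above and 3.09% below. The fitted log2 fold change was above 0 for 6 of the 9 and below 0 for 3, with a median of 0.10, beside a median of 0.02 over all genes tested. Without replicate 1 the count called stayed at 0 of 9, where 11.5% of 13551 genes were called (4.11% higher, 7.42% lower), and of the 9 only Sptlc2 had an unadjusted p under 0.05 (26.1% of all genes). For none did these 5 wells lie wholly above the controls (1.66% of tested genes) or wholly below (3.99%). In this fit 4 of the 9 lay above 0 and 5 below, with a median of -0.01.

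**Figure D1:**
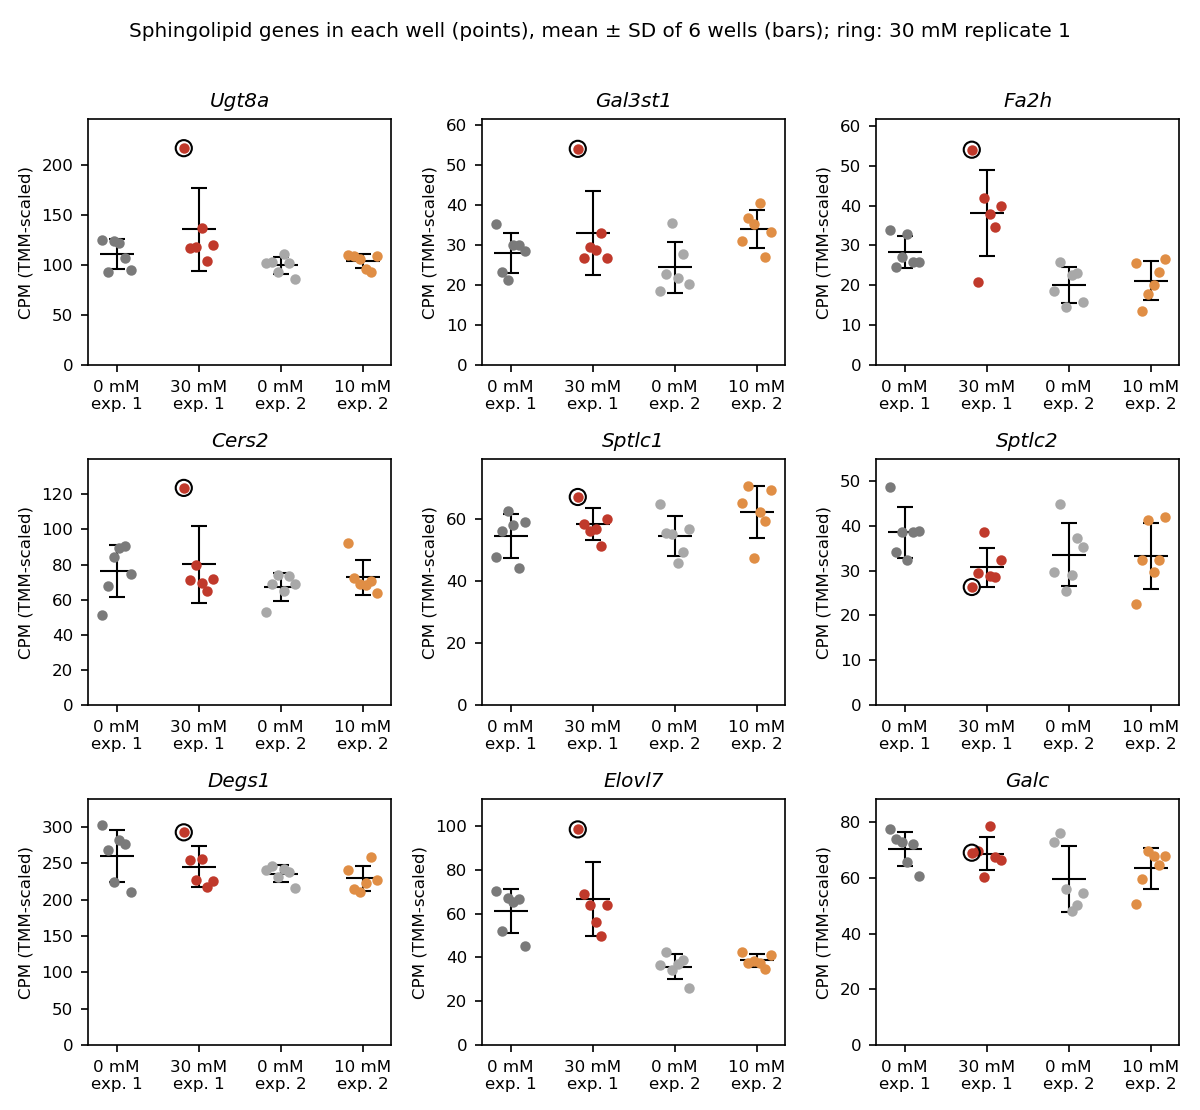
CPM (vertical axes, each starting at 0) of the 9 genes in each well, by dose and experiment; points are wells, bars the mean ± SD of 6 wells, and the ring marks replicate 1 at 30 mM. That well has the highest point of the panel for Ugt8a, Gal3st1, Fa2h, Cers2 and Elovl7, and the Elovl7 wells of experiment 1 lie above those of experiment 2.

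Ugt8a encodes the enzyme that joins galactose to ceramide, the step that commits it to galactosylceramide. Its level at 30 mM ran from 104 through a median of 119 to 217 CPM, and in the controls from 93.0 through 114 to 125 CPM. The groups overlapped: 1 of the other 5 ethanol wells, besides replicate 1, lay above the highest control. The mean was 135 ± 41.1 CPM (SD, n = 6) with ethanol and 111 ± 14.7 CPM (SD, n = 6) without. The log2 fold change was 0.30 (SE 0.114, edgeR adjusted p = 0.0855, 95% interval 0.07 to 0.53). Without replicate 1 the ethanol mean was 119 ± 11.8 CPM (SD, n = 5) and the log2 fold change 0.11 (SE 0.0883, edgeR adjusted p = 0.469).

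Whether Ugt8a passed the test depended on the setting. It passed in edgeR with upper quartile scaling (0.34, adjusted p = 0.0489), with the total count as a covariate (0.45, adjusted p = 0.000295) and in a joint fit of the 24 wells (0.30, adjusted p = 0.0387). It also passed without replicate 2 (edgeR adjusted p = 0.0493) and without replicate 5 (edgeR adjusted p = 0.0387) at 30 mM. In these 5 settings replicate 1 was present. In the upper quartile, covariate and joint fits without replicate 1, edgeR gave 0.15 (adjusted p = 0.255), 0.19 (adjusted p = 0.289) and 0.07 (adjusted p = 0.618), and Ugt8a was not called.

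Gal3st1 encodes the sulfotransferase that turns galactosylceramide into sulfatide. At 30 mM its wells ran from 26.6 through a median of 29.1 to 54.0 CPM, and its controls from 21.3 through 29.1 to 35.2 CPM. Apart from replicate 1, every ethanol well lay inside the range of the controls. The log2 fold change was 0.27 (SE 0.162, edgeR adjusted p = 0.327), and 0.05 (SE 0.155, edgeR adjusted p = 0.881) without replicate 1.

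Fa2h encodes the hydroxylase that makes the hydroxylated fatty acids of myelin galactolipids. Its wells ran from 20.8 through a median of 38.9 to 54.0 CPM at 30 mM, and from 24.6 through 26.5 to 33.8 CPM in the controls. The ethanol wells spread to both sides of the controls: 4 of the 5 wells other than replicate 1 lay above the highest control, and replicate 2 lay below the lowest. The log2 fold change was 0.43 (SE 0.156, edgeR adjusted p = 0.0730), the largest of the 9, and 0.28 (SE 0.155, edgeR adjusted p = 0.236) without replicate 1. Without replicate 2 in place of replicate 1 it was 0.56 and passed the test (SE 0.141, edgeR adjusted p = 0.00582). For Fa2h, then, the call turned on 1 low well.

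Sptlc1 and Sptlc2 encode the paired subunits of serine palmitoyltransferase, which starts the pathway. Sptlc2, which carries the catalytic lysine, ran from 26.4 through a median of 29.1 to 38.6 CPM at 30 mM and from 32.3 through 38.7 to 48.6 CPM in the controls. Replicate 1 and 3 of the other 5 ethanol wells lay below the lowest control, and the remaining 2 lay among the controls. The log2 fold change was -0.33 (SE 0.134, edgeR adjusted p = 0.116), and -0.28 (SE 0.140, edgeR adjusted p = 0.189) without replicate 1. It passed in edgeR only with the total count as a covariate (-0.42, adjusted p = 0.0446). Sptlc1, the partner subunit, ran from 51.5 through 57.6 to 67.2 CPM at 30 mM and from 44.2 through 57.1 to 62.6 CPM in the controls, so the groups overlapped over most of their range. Its log2 fold change was 0.10 (SE 0.105, edgeR adjusted p = 0.602), and 0.05 (SE 0.111, edgeR adjusted p = 0.806) without replicate 1.

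Degs1, the desaturase that makes ceramide from dihydroceramide, ran from 217 through a median of 240.5 to 292 CPM at 30 mM and from 210.1 through 272 to 303 CPM in the controls. The ethanol wells all lay inside the control range, and the log2 fold change was -0.08 (SE 0.0782, edgeR adjusted p = 0.572) with a 95% interval from -0.24 to 0.08. Without replicate 1 it was -0.14 (SE 0.0754, edgeR adjusted p = 0.233). Cers2, the ceramide synthase that adds very long acyl chains, ran from 64.9 through 71.3 to 124 CPM at 30 mM and from 51.4 through 79.6 to 90.4 CPM in the controls. Replicate 1 was the 1 ethanol well outside the control range. The fitted change of Cers2 was 0.08 (SE 0.125, edgeR adjusted p = 0.738) with that well and -0.10 (SE 0.109, edgeR adjusted p = 0.596) without it, so its sign rested on 1 well; it also turned to -0.01 without replicate 1 of the controls. Elovl7, an elongase of long fatty acyl chains, ran from 49.8 through 63.9 to 98.5 CPM at 30 mM and from 45.4 through 65.9 to 70.4 CPM in the controls. Its fitted change went likewise from 0.14 (SE 0.121, edgeR adjusted p = 0.502) to -0.01 (SE 0.112, edgeR adjusted p = 0.957) once replicate 1 was left out.

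Galc encodes the lysosomal galactosylceramidase, the 1 enzyme of the group that removes the galactose again, and its loss causes Krabbe disease. It ran from 60.4 through a median of 68.3 to 78.7 CPM at 30 mM and from 60.8 through 72.5 to 77.5 CPM in the controls. The groups covered nearly the same range. The log2 fold change was -0.03 (SE 0.0938, edgeR adjusted p = 0.873, 95% interval -0.22 to 0.16), and replicate 1, at 69.0 CPM, lay in the middle of its group. Without that well the change of Galc was -0.03 as well (edgeR adjusted p = 0.870). The sign of so small a value was not stable: it was 0.00138 with upper quartile scaling and 0.00264 without replicate 3 at 30 mM.

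**Figure D2:**
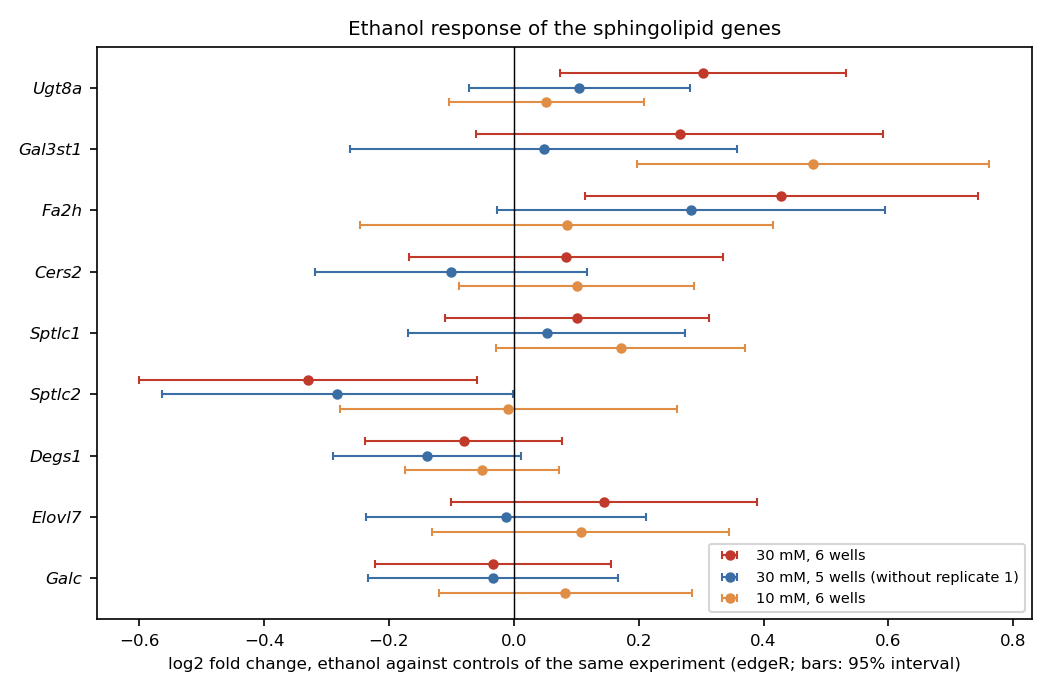
Log2 fold change of the 9 genes against the controls of the same experiment (horizontal axis), with 95% intervals from edgeR, for 30 mM with 6 wells, 30 mM with the 5 wells other than replicate 1, and 10 mM. The Ugt8a point moves from 0.30 to 0.11 when replicate 1 is left out, and Gal3st1 at 10 mM, at 0.48, is the highest of the 27 points.

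At 10 mM ethanol no gene of the group passed the test either. The edgeR test called 0 of 9 higher and 0 of 9 lower, where 0.391% of the 13538 genes tested were higher and 0.266% lower (0.657% in either direction), and DESeq2 and limma voom called 0 of 9. Gal3st1 was the 1 gene with an unadjusted p under 0.05, a share near the 10.1% over all genes. In none of the 9 were the ethanol and control wells apart, against 0.502% of tested genes with all ethanol wells above and 0.303% below. Fitted changes were above 0 for 7 of 9 and below 0 for 2, with a median of 0.08 beside -0.0023 over all genes tested.

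Gal3st1 ran from 27.0 through a median of 34.2 to 40.5 CPM at 10 mM and from 18.5 through 22.2 to 35.5 CPM in the controls of experiment 2. Most ethanol wells were higher than most controls, but control replicate 3, at 35.5 CPM, lay among the ethanol wells. The means were 34.0 ± 4.66 CPM (SD, n = 6) with ethanol and 24.4 ± 6.28 CPM (SD, n = 6) without. The log2 fold change was 0.48 (SE 0.142, unadjusted p = 0.00113, edgeR adjusted p = 0.101), with rank 151 by p among the 13538 genes tested. Without control replicate 3 it was 0.63 and passed the test (SE 0.148, edgeR adjusted p = 0.0218). It did not pass in any other setting tried, and DESeq2 gave it no adjusted p.

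The other 8 genes had fitted changes between -0.05 and 0.17 at 10 mM, and edgeR adjusted p-values from 0.590 to 0.992. Sptlc1 had the largest, 0.17 (95% interval -0.03 to 0.37), with wells from 47.6 through 63.7 to 70.7 CPM at 10 mM and from 45.8 through 55.3 to 64.8 CPM in the controls. The Sptlc1 groups overlapped. Ugt8a was at 93.1, 108 and 110.3 CPM (lowest, median and highest) with 10 mM and at 86.4, 102 and 111.0 CPM without, a log2 fold change of 0.05 with a 95% interval from -0.10 to 0.21. The values of Ugt8a thus overlapped almost entirely. Fa2h was at 13.6, 21.6 and 26.6 CPM with 10 mM and at 14.5, 20.5 and 25.8 CPM without, and Sptlc2 at 22.5, 32.3 and 42.0 CPM with it and at 25.4, 32.5 and 44.8 CPM without. Fitted changes were 0.08 for Fa2h and -0.0090 for Sptlc2, the genes with an unadjusted p under 0.05 at 30 mM besides Ugt8a. Cers2 reached 92.4 CPM in replicate 1 at 10 mM and lay between 63.9 and 72.4 CPM in the other 5 wells, against 52.9 to 74.0 CPM in the controls. Degs1, Elovl7 and Galc had fitted changes of -0.05, 0.11 and 0.08.

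The difference between the responses, the log2 fold change at 30 mM minus that at 10 mM, was tested over all 24 wells. No gene of the group passed in edgeR, DESeq2 or limma voom (0 of 9), where edgeR called 0.880% of 14655 genes tested higher, 2.40% lower and 3.28% in all. An unadjusted p under 0.05 was found for 0 of the 9 and for 17.2% of all genes. The differences were 0.24 for Ugt8a (95% interval -0.05 to 0.53), 0.33 for Fa2h (-0.14 to 0.81), -0.33 for Sptlc2 (-0.72 to 0.06) and -0.22 for Gal3st1 (-0.67 to 0.22). Those of the other 5 genes lay between -0.13 and 0.03. Without replicate 1 at 30 mM, 0 of 9 passed where 5.10% of 14888 genes did (1.45% higher, 3.65% lower), and several differences moved: to 0.02 for Ugt8a, 0.17 for Fa2h, -0.23 for Cers2, -0.12 for Degs1, -0.15 for Sptlc1 and -0.15 for Elovl7. Sptlc2 was at -0.30 and Galc at -0.15. Gal3st1, at -0.46 (SE 0.211, unadjusted p = 0.0304, edgeR adjusted p = 0.188), was the 1 gene with an unadjusted p under 0.05 there, beside 20.6% of all genes. These intervals are wide, and a p above the threshold does not show that the responses were alike.

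The control wells of the experiments differed widely. Between them 43.6% of 13479 genes passed in edgeR, 21.3% higher in experiment 1 and 22.3% lower. Of the 9 genes 2 were higher in the controls of experiment 1, Elovl7 and Fa2h, and 0 were lower. All control wells of experiment 1 lay above all of experiment 2 for 1 gene, Elovl7, beside 10.6% of tested genes above and 8.27% below. Elovl7 ran from 45.4 through 65.9 to 70.4 CPM in experiment 1 and from 25.9 through 36.7 to 42.5 CPM in experiment 2, a log2 difference of 0.76 (SE 0.115, edgeR adjusted p = 4.38e-08). Fa2h ran from 24.6 through 26.5 to 33.8 CPM in experiment 1 and from 14.5 through 20.5 to 25.8 CPM in experiment 2, a difference of 0.49 (SE 0.155, edgeR adjusted p = 0.00677). The Fa2h groups overlapped narrowly. With 43.6% of all genes called, 2 of 9 is not more than the background. Of the other 7 genes 6 had differences above 0, from 0.13 for Degs1 to 0.22 for Galc (edgeR adjusted p = 0.0672), and Sptlc1 was at -0.02. Degs1 and Galc passed as well with no low-count filter and without control replicate 6 of experiment 1, which gives 4 of 9. With no filter 7340 genes were called over the whole table.

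Markers of other cells also differed between these controls, where 21.3% of all genes were higher in experiment 1 and 22.3% lower. All 8 microglial markers tested were lower in experiment 1, with a summed CPM over 9 markers of 194 to 340 against 2399 to 2929, and none of the 9 was at 0. Of the 8 astrocyte markers 5 were higher and 2 lower, with summed CPM of 3808 to 4736 and 4343 to 4676, and none at 0. Of 6 precursor markers 0 were higher and 3 lower, and of 7 fibroblast and mural markers tested 1 was higher and 3 lower. Of 5 neuronal markers tested 0 were higher and 2 lower, and of 2 endothelial markers tested 1 was lower. The part of the other cell types in the Elovl7 and Fa2h differences was not tested.

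In order of mean level, 30 mM stood first and the controls of experiment 2 last for Ugt8a, Fa2h, Cers2 and Elovl7, with the controls of experiment 1 above the 10 mM wells. Without replicate 1 this order held for Ugt8a and Fa2h, while Cers2 at 30 mM, at 71.4 CPM, lay below its controls (76.3 CPM) and 10 mM (72.8 CPM), and Elovl7, at 60.6 CPM, below its controls. For Elovl7 the means were 66.9, 61.1, 38.7 and 35.8 CPM, and the wells of neighbouring groups overlapped except between the controls of experiment 1 and 10 mM. For every other gene all neighbours in the order overlapped. Gal3st1 and Sptlc1 were highest at 10 mM, at 34.0 and 62.4 CPM, and lowest in the controls of experiment 2. Sptlc2, Degs1 and Galc were highest in the controls of experiment 1, at 38.6, 260.3 and 70.5 CPM.

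Replicate 1 at 30 mM was the highest well of its group for 7 of the 9 genes, all but Sptlc2 and Galc, while 21.4% of all genes tested were highest there. Ugt8a, Gal3st1 and Cers2 stood far above the rest of the group in that well: the gap to the next well took up most of the range of the 6 wells (past the 95% limit of Dixon's test), which held for 1.51% of all genes in that well. Relative to the mean of the other 5 wells, replicate 1 was 1.87 times as high for Gal3st1, 1.82 for Ugt8a, 1.73 for Cers2, 1.63 for Elovl7 and 1.54 for Fa2h. It was 1.24 times as high for Degs1, 1.19 for Sptlc1 and 1.01 for Galc, and 0.834 for Sptlc2. Summed over the 9 genes, the level was 1002 CPM in replicate 1 and between 650.3 and 749 CPM in the other 5 wells, against 638 to 793 CPM in the controls. In the controls of experiment 1 replicate 1 was also the highest well for 7 of the 9 genes, where 17.0% of all genes were highest. None of the 9 stood far above the other wells there, beside 0.506% of all genes.

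**Figure D3:**
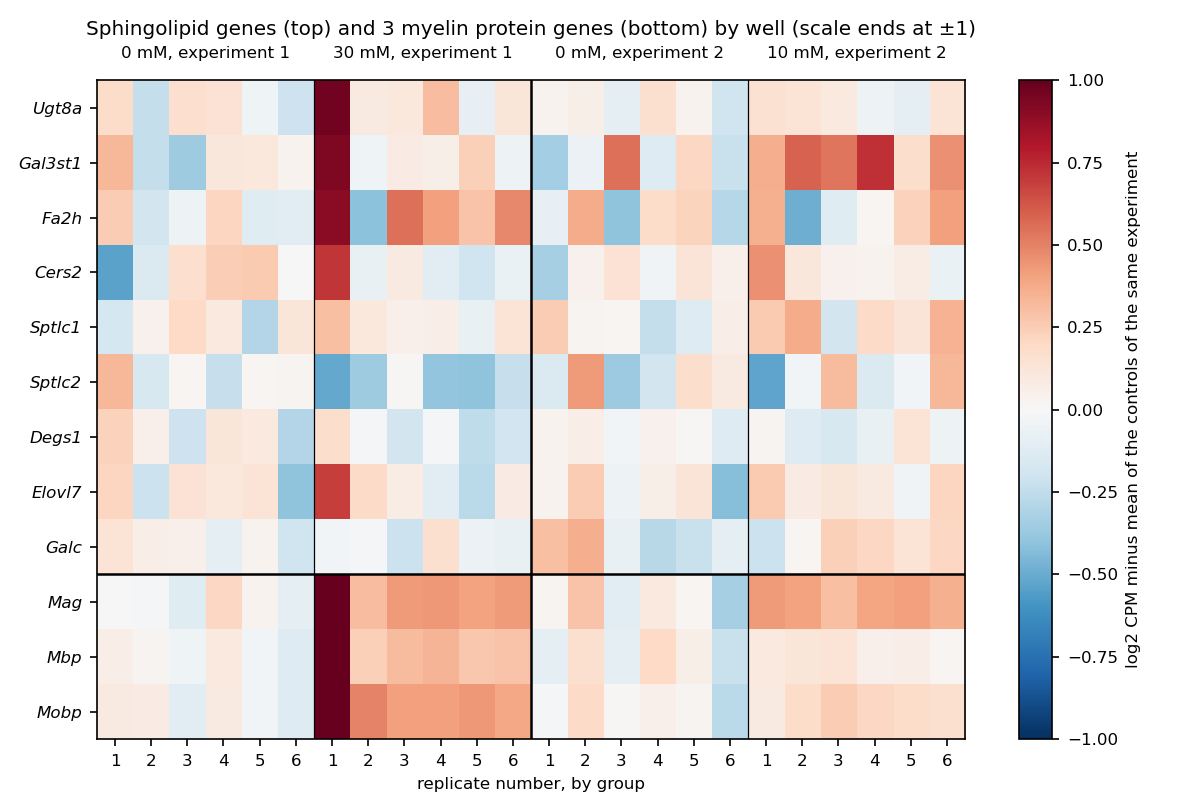
Log2 CPM of the 9 sphingolipid genes (top rows) and the myelin protein genes Mag, Mbp and Mobp (bottom rows) in each of the 24 wells (columns, by group and replicate), less the mean of the controls of the same experiment; colours end at -1 and 1. Replicate 1 at 30 mM is red in all rows but Sptlc2 and Galc, and Mag and Mobp are red across the other 30 mM wells, where most of the sphingolipid rows are pale.

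The genes for myelin proteins, which oligodendrocytes make together with these lipids, were counted in the same way for comparison. Of 10 such genes 7 were higher at 30 mM and 0 lower in edgeR, beside 3.02% and 6.65% of all genes tested. Their median log2 fold change was 0.43. Without replicate 1, 7 were higher (4.11% of all genes) and 0 lower (7.42%), with a median of 0.26. Of the 11 oligodendrocyte markers, a list that shares genes with this one, 6 were higher and 1 lower at 30 mM. Mag, an adhesion protein of the inner myelin membrane, ran from 497 through 540.0 to 959 CPM at 30 mM and from 368 through 398 to 462 CPM in the controls. The wells did not overlap, and the log2 fold change was 0.59 (SE 0.0959, edgeR adjusted p = 2.63e-05). Mbp, which compacts myelin, changed by 0.44 (SE 0.0808, edgeR adjusted p = 0.000156), and Mobp, another protein of compact myelin, by 0.63 (SE 0.0986, edgeR adjusted p = 1.25e-05). Without replicate 1 the changes were 0.40 for Mag, 0.29 for Mbp and 0.43 for Mobp, where Ugt8a was at 0.11. These 3 do not stand for the whole list: without that well 8 of the 10 lay above 0 and 2 below. Mog, named after its value was seen, averaged 123 CPM in the other ethanol wells and 130 CPM in the controls. At 10 mM 3 of the 10 were higher, beside 0.391% of all genes tested, among them Mag (0.36, SE 0.0594, edgeR adjusted p = 8.45e-05). Whether the 9 sphingolipid genes responded less than the myelin protein genes was not tested as such.

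Markers of some other cell types moved at 30 mM as well, where 3.02% of all genes tested were higher and 6.65% lower. Of 8 astrocyte markers 5 were higher and 0 lower, with summed CPM from 5253 to 6667 against 3808 to 4736 in the controls, and none at 0. Of 7 fibroblast and mural markers tested 4 were lower and 0 higher, with summed CPM over 8 markers from 339 to 419 against 655 to 942, and none at 0. The remaining lists held few calls. Of 6 precursor markers 1 was lower and 0 higher, and of 6 microglial markers tested 1 was higher and 0 lower. No neuronal marker (0 of 4 tested) and no endothelial marker (0 of 2 tested) was called. The astrocyte count was 5 and the fibroblast and mural count 4 without replicate 1 too, where 4.11% of all genes were higher and 7.42% lower. In replicate 1 itself the astrocyte sum was the lowest of its group. The part of these cells in the levels of the 9 genes was not tested.

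Within a well, the ratio of 2 counts does not depend on how the library is scaled, and such ratios are given here as descriptions with no test. The log2 ratio of Ugt8a to Galc, synthesis against breakdown of galactosylceramide, was 0.94 ± 0.365 (SD, n = 6) with 30 mM, compared with 0.65 ± 0.188 (SD, n = 6) without ethanol. Replicate 1 was at 1.64, and without it the 30 mM mean was 0.79, still above the control mean of 0.65. The wells overlapped: those at 30 mM other than replicate 1 ran from 0.62 to 0.96, and the controls from 0.33 to 0.88. At 10 mM the ratio was 0.72, and 0.75 in the controls.

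Sptlc1 to Sptlc2 had a log2 ratio of 0.92 ± 0.259 (SD, n = 6) with 30 mM, compared with 0.50 ± 0.339 (SD, n = 6) without ethanol, and 0.91 and 0.71 at 10 mM and in its controls. The wells overlapped in both experiments, although both ethanol means lay above their control means; without replicate 1 the 30 mM mean was 0.84. Gal3st1 to Ugt8a was -1.61 ± 0.209 (SD, n = 6) with 10 mM, compared with -2.04 ± 0.383 (SD, n = 6) without ethanol, and -2.02 and -1.98 at 30 mM and in its controls. The mean ratio was thus higher with ethanol in experiment 2, with overlapping wells, and at 30 mM the difference of -0.04 was smaller than the spread of the wells and ranged from -0.15 to 0.0087 on leaving out 1 well. Fa2h to Ugt8a was -1.83 at 30 mM (-1.79 without replicate 1) and -1.95 in the controls, and -2.31 at 10 mM and -2.31 in its controls. Ugt8a to Mbp was -4.72 ± 0.121 (SD, n = 6) with 30 mM, compared with -4.56 ± 0.168 (SD, n = 6) without ethanol, and in replicate 1 it was -4.60, among the values of its group, whose mean without that well was -4.74. Cers2 against the sum of the other Cers genes was -1.39 at 30 mM (-1.50 without replicate 1) and -1.66 in the controls, and -1.57 and -1.72 in experiment 2.

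The rest of the sphingolipid pathway was examined from lists of genes. Other genes of ceramide synthesis had 9 of 14 members tested, of which 0 were higher and 1, Cers4, was lower at 30 mM. Over all genes tested 3.02% were higher and 6.65% lower. Cers4, a ceramide synthase for long acyl chains, ran from 101 through 111.0 to 126 CPM at 30 mM and from 128 through 132 to 163 CPM in the controls. All ethanol wells lay below all controls, and the log2 fold change was -0.30 (SE 0.0804, edgeR adjusted p = 0.0106), and -0.31 (edgeR adjusted p = 0.00813) without replicate 1. Without replicate 1 a further gene passed, Kdsr, the reductase between serine palmitoyltransferase and the ceramide synthases, at 0.35 (SE 0.114, edgeR adjusted p = 0.0356), against 0.31 (edgeR adjusted p = 0.0621) with it; Kdsr is named after its value was seen. In the donor supply, transport and breakdown of galactolipids, 1 of 9 genes tested was higher at 30 mM, Gltp, a glycolipid transfer protein. It ran from 167 through 213 to 327 CPM, overlapping controls from 139 through 163 to 208 CPM, a log2 change of 0.43 (SE 0.102, edgeR adjusted p = 0.00403), and 0.28 (edgeR adjusted p = 0.0198) without replicate 1.

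At 30 mM edgeR called 0 of 8 tested genes of sphingomyelin metabolism, 0 of 10 for glucosylceramide and gangliosides and 0 of 9 for ceramide breakdown and sphingosine 1-phosphate. Over all genes tested 9.67% were called. The medians of these lists were 0.01, 0.03 and -0.05 on the log2 scale, beside 0.02 over all genes. Without replicate 1 the counts were 0 in each as well, beside 11.5% of all genes. At 10 mM no gene of the 5 lists passed (0 of 9, 0 of 8, 0 of 7, 0 of 10 and 0 of 10 tested), with medians from -0.04 to 0.08. Over all genes tested 0.657% passed there. In the difference between the responses 1 of 8 tested genes of sphingomyelin metabolism passed, where 3.28% of all genes did. The other lists held 0 of 9, 0 of 9, 0 of 10 and 0 of 10. The gene was Samd8, a relative of the sphingomyelin synthases, named after its value was seen, at 0.38 (SE 0.109, edgeR adjusted p = 0.0358). Samd8 did not pass without replicate 1 (0.34, edgeR adjusted p = 0.0588), where 5.10% of all genes did.

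Between the controls of the experiments, where 43.6% of all genes were called, the lists held 5 of 9, 4 of 8, 5 of 8, 3 of 10 and 4 of 9 calls. Ceramide synthesis had 3 higher in experiment 1 (Sptssa, Ormdl3 and Cers4) and 2 lower (Kdsr and Cers3) of 9, galactolipid supply and breakdown 3 higher (Papss1, Gltp and Gm2a) and 1 lower (Psap) of 8, and sphingomyelin metabolism 3 higher (Sgms2, Smpd1 and Smpd3) and 2 lower (Samd8 and Smpd4) of 8. Glucosylceramide and ganglioside genes had 1 higher (St3gal5) and 2 lower, Hexa among them, of 10, and ceramide breakdown 0 higher and 4 lower (Asah2, Sgpl1, Sgpp1 and Cerk) of 9. These names were taken after the values were seen. The lysosomal genes Hexa and Psap differed most of those lower in experiment 1, at -0.90 (SE 0.0832, edgeR adjusted p = 7.02e-16) and -0.88 (SE 0.0569, edgeR adjusted p = 5.53e-24). The part in them of the microglial markers, lower in the same wells, was not tested.

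**Figure D4:**
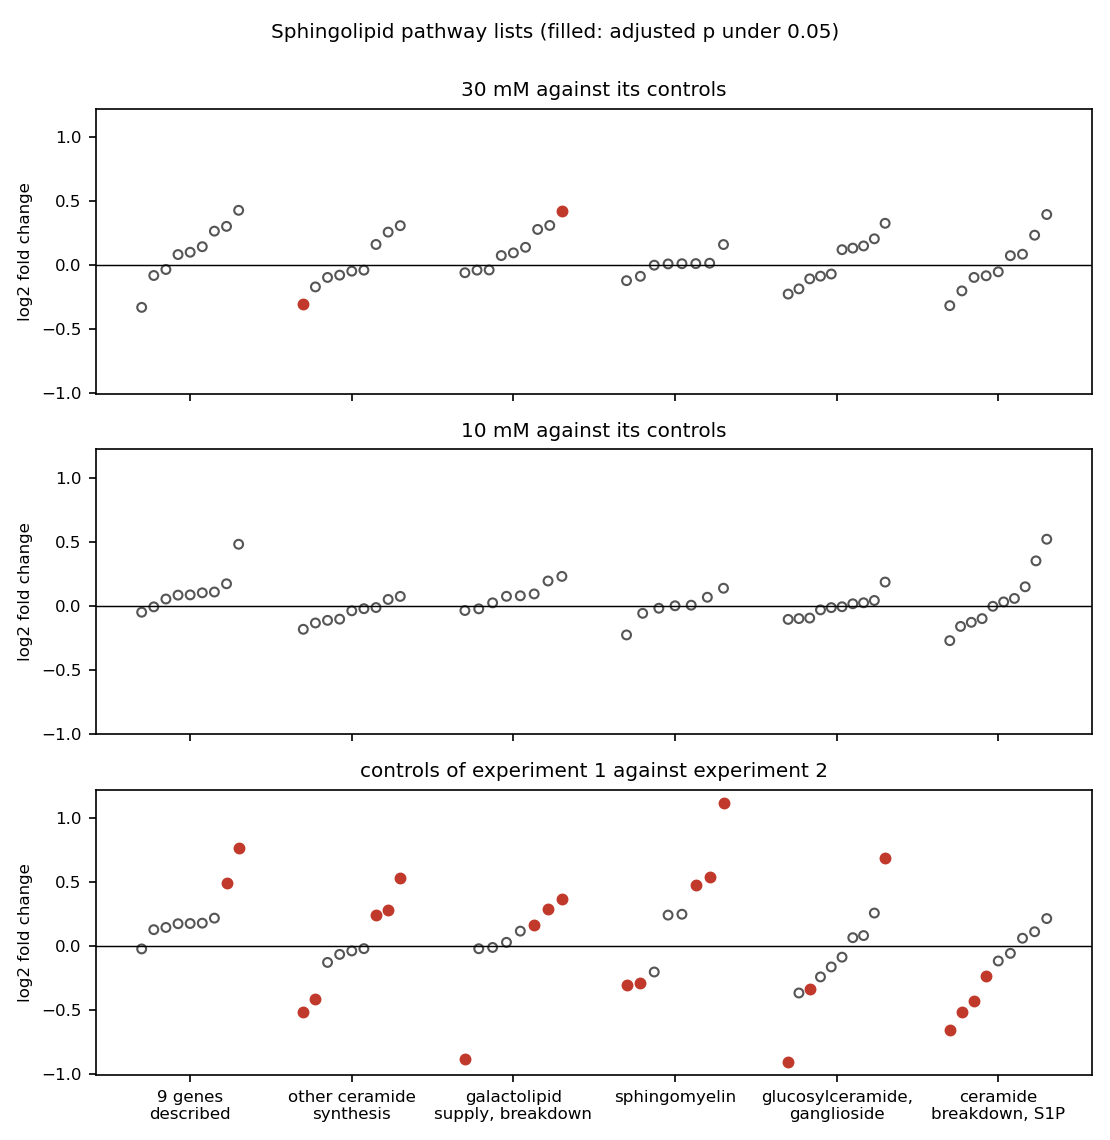
Log2 fold change (vertical axis) of each tested gene of the 9 described and of 5 other sphingolipid lists, for 30 mM, 10 mM and the controls of experiment 1 against experiment 2; each point is a gene, ordered by value, and filled points passed edgeR at an adjusted p under 0.05. Filled points are 2 at 30 mM (Cers4 and Gltp), 0 at 10 mM and many between the controls.

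Genes whose pattern was most like that of Ugt8a were sought among 6512 genes, by the root mean square difference in log2 CPM from Ugt8a over the 24 wells after subtracting each experiment's mean. The 5 nearest outside the group were Tubb4a (0.115), Mbp (0.124), Slc44a1 (0.135), Ptprd (0.136) and Pak1 (0.139), where the deviation of Ugt8a itself was 0.225. Elovl7 was the nearest of the group, at 0.138, and Sptlc2 the farthest, at 0.379. Without replicate 1 at 30 mM the deviation of Ugt8a fell to 0.139 and the 5 nearest were Ssr1, Sptbn1, Nisch, Uqcr11 and Glo1, at 0.0947 to 0.113. The lists shared 0 genes, so the 5 nearest did not hold without replicate 1. Whether they hold on leaving out another well was not tested.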

How the data were processed

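The deposited table held raw counts per gene, whole numbers, for 24 wells in 55359 rows of Ensembl identifiers. Per the submitters' processing notes the authors used cutadapt 1.18, STAR and the build GRCm39; the counting tool, annotation and use of strand are not given in the sources used here. Symbols were matched by identifier for 52083 rows (94.1%). In the GENCODE M21 annotation, exons of Cers2 (6330562C20Rik, Setdb1) and Galc (Gm47439) overlap genes on the opposite strand, so those counts are uncertain. Wells were grouped by their labels. No pair of wells of a group agreed within sampling noise (chi-square per degree of freedom 1.07 to 2.88). At 30 mM replicate 1 gave 2.07 to 2.88 against the other wells. Replicate 2 gave 1.75 to 2.12 against replicates 3 to 6, which gave 1.16 to 1.42 among themselves.

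Each comparison was fitted over all genes with edgeR 4.0.16 in R 4.3.3 (quasi-likelihood test, TMM, filterByExpr minimum of 10 counts), and genes with a Benjamini-Hochberg adjusted p under 0.05 were called. Each dose was fitted against the 6 controls of its experiment, and the difference of responses as an interaction over 24 wells. The test was checked on simulated data. CPM used TMM factors over 24 wells, ratios a pseudocount of 0.5, and likeness a prior count of 2 and a mean log2 CPM of at least 5. Alternatives were other scalings, no filter, DESeq2 1.42.0, voom (limma 3.58.1), a total count covariate, a joint fit, a replicate block and leaving out each well. The 9 genes, the lists and the tests were chosen with earlier results of these data known. Named are the 9 genes, genes of other pathway lists called at either dose, up to 3 examples of myelin protein genes, the 5 genes most like Ugt8a, and others where said. Some results for other genes of these lists are not reported here.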

Additional observations from a re-analysis of the deposited data

Results flagged for a closer look

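In replicate 1 at 30 mM ethanol, Ugt8a (217 CPM, the other wells at most 137), Gal3st1 (54.0, at most 32.9) and Cers2 (124, at most 79.8) stood apart from the other 5 wells of the group. So did Gltp at 327 CPM, Mbp at 5265 CPM, Mag at 959 CPM and Mobp at 1536 CPM, and the log2 ratio of Ugt8a to Galc at 1.64. In other groups, Cers2 stood apart at 92.4 CPM in replicate 1 at 10 mM, Cers4 at 163 CPM in replicate 4 of the controls of experiment 1, and the log2 ratio of Gal3st1 to Ugt8a at -2.52, the lowest of its group, in replicate 3 of those controls. A sample counted as standing apart when its gap to the nearest other, as a share of the range, exceeded the 95% limit of Dixon's test. Of 84 sets of 6 values examined 11 held such a sample, where independent sets would give about 4.2. These sets were not independent, since they share the same wells and the ratios reuse counts of the genes. In addition, 5 of the 11 came from the 20 sets of Cers4, Gltp, Mag, Mbp and Mobp, chosen with earlier results of these data known. The numbers 11 and 4.2 therefore make no test.

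The responses at 30 mM and 10 mM differed, by the edgeR interaction test over 24 wells, for Samd8 (0.38, adjusted p = 0.0358), Mbp (0.36, adjusted p = 0.0363) and Mobp (0.46, adjusted p = 0.0201) on the log2 scale. Without replicate 1 at 30 mM the edgeR adjusted p-values were 0.0588, 0.159 and 0.0981. None of the 9 sphingolipid genes was among them.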

How the results depend on the processing

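With a replicate block edgeR called 1208 genes at 30 mM, 68 at 10 mM and 461 for the difference, against 1280, 89 and 481 without it, and 0 of the 9 sphingolipid genes in each; same-numbered wells correlated between -0.17 and 0.23, so the numbers were not taken to pair the wells.

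At 30 mM the number of the 9 called was 1 with upper quartile scaling, 2 with the total count covariate and 1 in the joint fit. Over all genes these settings called 1248, 1186 and 1599, against 1280 in the analysis reported. The number of the 9 was 0 to 2 on leaving out wells (Ugt8a and Fa2h without replicate 2, Ugt8a without replicate 5), where 953 to 1563 genes were called. It was 0 to 1 on leaving out wells at 10 mM (Gal3st1, without control replicate 3) and 0 for the difference. Between controls it was 4 with no filter, where 7340 genes were called in all (5880 in the analysis reported). On leaving out wells it was 2 to 4. Cers2 passed without replicate 1 of experiment 1 and Degs1 without its replicates 3 and 6. Galc passed without replicates 4 and 6 of experiment 1 and without replicates 1 and 2 of experiment 2. Over all genes, 10 mM gave 58 calls with DESeq2, 21 in the joint fit and 37 to 95 on leaving out wells, 57 or fewer without replicates 2 and 4 at 10 mM and replicates 4, 5 and 6 of the controls. The difference gave 307 with the total count covariate and 329 to 759 on leaving out wells (759 and 723 without replicates 1 and 2 at 30 mM), and 30 mM gave 953 to 1563 on leaving out wells and 1986 in the joint fit without replicate 1. Between controls, leaving out wells gave 5367 to 6250. With upper quartile scaling the split was 551 higher and 697 lower at 30 mM (400 and 880 in the analysis reported) and 222 and 203 for the difference (129 and 352). No scaling moved the median of all genes by 0.1 on the log2 scale.

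No change that was called turned its sign. Signs turned for changes that were not called, among them Gal3st1 (0.27 as reported) and Elovl7 (0.14) at 30 mM, and the cause was not tested. At 30 mM Galc was 0.00138 with upper quartile scaling. With replicate 1 left out as well, upper quartile scaling gave Cers2 -0.057 and Galc 0.0099, the covariate Gal3st1 -0.017, Cers2 -0.029 and Galc 0.0027, and the joint fit Cers2 -0.13 and Elovl7 -0.044. At 10 mM Sptlc2 was 0.014 with no filter. In the difference Cers2 was 0.044 and Degs1 0.032 with upper quartile scaling, Cers2 0.060 and Degs1 0.033 with the covariate, and Elovl7 -0.028 with no filter, -0.0078 with DESeq2 and -0.0037 with voom. Between controls Sptlc1 was 0.030 with no filter and 0.011 with DESeq2.

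On leaving out 1 well, these ranged across 0. At 30 mM Cers2 ran from -0.10 to 0.14 (below 0 without replicate 1 of either group), Elovl7 from -0.013 to 0.22 (below 0 without replicate 1 at 30 mM) and Galc from -0.077 to 0.0026 (above 0 without replicate 3 at 30 mM). Sptlc2 at 10 mM ran from -0.082 to 0.088 (above 0 without replicates 1, 2, 4 and 5 at 10 mM and 2, 5 and 6 of the controls). In the difference Cers2 ran from -0.23 to 0.045 (above 0 without replicates 4 and 5 of both groups of experiment 1 and replicate 1 of both groups of experiment 2) and Elovl7 from -0.15 to 0.088 (below 0 without replicate 1 at 30 mM, 2 and 6 of its controls, 5 at 10 mM and 2 and 5 of its controls). Sptlc1 between controls ran from -0.060 to 0.040 (above 0 without replicates 1 and 5 of experiment 1 and 1 of experiment 2).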
